A study of Mus musculus with 18 samples.

Results

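The genes described here are 37 mouse genes of DNA replication and S phase, taken by symbol from a table of 43309 genes in bone marrow-derived macrophages. These members and the other gene lists were chosen with earlier results of these data known. Shares of all genes are therefore given beside the counts for reference and are not a test. All 37 were found and passed the filter on low values. By role they comprise 10 genes of origin licensing, 4 of helicase activation, 6 of the polymerases, 6 of the sliding clamp and Okazaki fragment joining, 4 of nucleotide supply, 3 of chromatin assembly and 4 of G1/S control. Bone marrow of C57BL/6 mice was cultured for 7 days with 10 ng/ml M-CSF, the growth factor that drives macrophage differentiation, and then polarized for 18 h. M1 cells received 100 ng/ml LPS with 20 ng/ml interferon gamma, and M2 cells received 20 ng/ml IL-4. The genotypes were Myeloid 14-3-3e knockout (14-3-3e KO, gene Ywhae), PGRN knockout (PGRN KO, gene Grn, which encodes progranulin) and wild type (WT). Each of the 6 genotype and polarization groups has 3 libraries of total RNA, 18 in all. The promoter or Cre line behind the myeloid knockout, the age of the mice and whether replicates are separate mice are not stated in the labels, so the p-values speak only of the spread among these libraries.

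Replication starts from origins that are licensed in G1, when the origin recognition complex, Cdc6 and Cdt1 load the Mcm2 to Mcm7 helicase. At S phase entry cyclin E and E2F factors drive a shared transcription programme, the helicase is activated by Cdc45 and the GINS complex, and polymerases copy DNA behind it with deoxynucleotides made by ribonucleotide reductase. Macrophages in culture divide in response to M-CSF, and LPS and interferon gamma are known to stop that division.

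Promoter windows of 200 bases are shown for 5 members because E2F factors bind letters of this kind near replication genes, and the 5 differ in both letters and response. Each runs 5′ to 3′ on the strand of the gene, with 170 bases before and 30 after the RefSeq start, on GRCm38.p6. Capitals mark the E2F letters searched on both strands, which were TTTCCCGC, TTTGGCGC, TTTCGCGC and TTTGCCGC.
Mcm5, chr8:75109339-75109538, plus strand: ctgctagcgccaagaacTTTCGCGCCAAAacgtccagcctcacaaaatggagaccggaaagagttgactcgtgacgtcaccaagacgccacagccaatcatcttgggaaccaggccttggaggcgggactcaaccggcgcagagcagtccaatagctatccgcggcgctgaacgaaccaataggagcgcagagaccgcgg
Mcm6, chr1:128359676-128359875, minus strand: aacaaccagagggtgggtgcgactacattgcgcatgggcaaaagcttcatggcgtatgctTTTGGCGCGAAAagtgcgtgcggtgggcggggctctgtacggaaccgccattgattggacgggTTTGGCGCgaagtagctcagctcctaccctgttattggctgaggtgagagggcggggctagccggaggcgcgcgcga
Orc1, chr4:108579284-108579483, plus strand: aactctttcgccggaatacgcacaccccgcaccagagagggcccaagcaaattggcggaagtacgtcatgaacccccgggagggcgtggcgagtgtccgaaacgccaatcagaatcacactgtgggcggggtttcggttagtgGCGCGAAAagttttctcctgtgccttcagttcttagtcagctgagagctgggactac
Rfc3, chr5:151651179-151651378, minus strand: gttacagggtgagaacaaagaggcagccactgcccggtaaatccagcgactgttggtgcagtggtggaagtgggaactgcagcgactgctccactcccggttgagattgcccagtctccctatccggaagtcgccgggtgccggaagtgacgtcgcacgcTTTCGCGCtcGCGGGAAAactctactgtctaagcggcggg
Rrm2, chr12:24708084-24708283, plus strand: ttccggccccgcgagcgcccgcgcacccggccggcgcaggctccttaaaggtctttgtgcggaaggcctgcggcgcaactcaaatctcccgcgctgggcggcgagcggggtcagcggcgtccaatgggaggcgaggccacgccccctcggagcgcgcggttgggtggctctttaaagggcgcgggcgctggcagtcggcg

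In the full RefSeq windows of 250 bases before to 50 bases after a start, 13 of the 31 members with a window held at least 1 E2F match, which is 41.9%. Over all 27025 genes with a window the share was 2.60%. The members with a match were Orc1, Cdc6, Cdt1, Mcm3, Mcm5, Mcm6, Mcm7, Pola1, Pold1, Rfc3, Lig1, Uhrf1 and E2f2, and Ccne2, Gins1, Gins2, Mcm4, Pole and Prim2 had no window. The matches in Mcm5, and 2 of the 3 in Mcm6, overlap each other on opposite strands. The letters TTTGAA or TTCGAA, known as the CHR element of late cell cycle genes, stood in 19.4% of members and in 21.7% of all genes, against 69.2% of 26 mitosis genes. The letters CCAAT stood in 58.1% of members, 73.1% of those mitosis genes and 41.1% of all genes. Rfc3 holds 2 E2F matches and its M1 and M2 libraries overlapped in WT, while Rrm2 holds no E2F match, holds 1 CCAAT, and fell in M1 in every genotype. All members with a match other than Rfc3 fell in M1 in every genotype. So did the members with a window and no match, except Pola2, Rfc4 and E2f1, which did not pass in PGRN KO. Whether a match goes with the size of the fall was not tested. A match is a run of letters and was not tested as a binding site.

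Depth, as whole reads recovered from the deposited values, ran between 5157638 and 105315616 reads per library, with all 3 WT M1 libraries at 14518830 reads or below. The fewest reads behind any member were 8 for Orc1 in WT M1 replicate 3. Ribosomal RNA-like genes took 5.71% of reads in WT M2 replicate 3 and 0.755% in WT M1 replicate 2, against at most 0.0418% elsewhere. The targeted genes followed the labels: Grn averaged 313 normalized counts in PGRN KO M1 against 88266 in WT M1, and Ywhae averaged 5647 in 14-3-3e KO M1 against 9305 in WT M1. In M2, Grn averaged 26.9 in PGRN KO against 31336 in WT, and Ywhae averaged 4860 in 14-3-3e KO against 8739 in WT. The log2 fold change of Ywhae was -0.72 ± 0.08 in M1 and -0.85 ± 0.08 in M2, so its RNA was lowered and not lost. All 8 M1 check genes rose and all 8 M2 check genes fell in M1 against M2 in each genotype.

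Genes that mark other cell types also had reads, and their levels move with some of the comparisons below. All 13 markers of stromal cells had reads, and they summed to 664743 to 806282 normalized counts in 14-3-3e KO M1, 321637 to 369431 in PGRN KO M1 and 396128 to 646150 in WT M1. In M2 the stromal sums were 519940 to 661314 in 14-3-3e KO, 263974 to 325522 in PGRN KO and 413382 to 534041 in WT. The sums of the 10 macrophage identity markers ran the other way, with 201366 to 275184 in 14-3-3e KO M1, 463181 to 558334 in PGRN KO M1 and 275261 to 451589 in WT M1. In M2 the macrophage marker sums were 77300 to 94131 in 14-3-3e KO, 288950 to 338648 in PGRN KO and 138351 to 169154 in WT. Such sums weigh the most abundant genes most, and not every marker moved with its sum. Counts of called stromal and macrophage markers are given with the comparisons of genotypes below. All 10 markers of myeloid progenitors, cells that divide in marrow, had reads as well, summing to 1677 to 3432 in 14-3-3e KO M1, 1271 to 2388 in PGRN KO M1 and 1079 to 2288 in WT M1. In M2 the progenitor sums were 2540 to 5004 in 14-3-3e KO, 1705 to 4190 in PGRN KO and 1383 to 4429 in WT. Over the 18 libraries together, no marker on any list of other cells was without a read.

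M1 cells had fewer transcripts of nearly every replication gene than M2 cells, in all 3 genotypes. Of the 37 members, 37 fell in 14-3-3e KO, 31 in PGRN KO and 35 in WT, and none rose. The median log2 fold change of M1 against M2 was -1.30 in 14-3-3e KO, -0.93 in PGRN KO and -1.41 in WT, while over all 21336 genes tested it was 0.03 in 14-3-3e KO, -0.04 in PGRN KO and -0.04 in WT. Calls use limma with p adjusted by Benjamini-Hochberg over all genes and a threshold of 0.05. The share of all genes that fell at this threshold was 14.4% in 14-3-3e KO, 19.5% in PGRN KO and 20.0% in WT, and the share that rose was 15.6% in 14-3-3e KO, 18.0% in PGRN KO and 18.9% in WT. None of the 18 libraries came from cells left without either stimulus, so a decrease in M1 and an increase in M2 cannot be told apart. For M1 against M2, fell and rose mean lower and higher in M1 than in M2. Fewer dividing cells and less of each transcript per cell cannot be told apart in these bulk samples either.

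As a share of all reads, the 37 genes together took 0.0978% to 0.118% in 14-3-3e KO M1, 0.0888% to 0.0995% in PGRN KO M1 and 0.0907% to 0.101% in WT M1. In M2 they took 0.272% to 0.306% in 14-3-3e KO, 0.204% to 0.238% in PGRN KO and 0.253% to 0.280% in WT. The M1 and M2 libraries did not overlap within any genotype for 37 members in 14-3-3e KO, 35 in PGRN KO and 35 in WT, all lower in M1. The same is true of 24.1% of all genes in 14-3-3e KO, 27.0% in PGRN KO and 20.4% in WT. Beside these falls, the progenitor markers also fell in part, with 2 of 10 lower in 14-3-3e KO, 4 of 10 in PGRN KO and 4 of 10 in WT, led by Mpo at -3.61 ± 0.62 in WT. Stromal markers went both ways, with 6 higher and 1 lower of 13 in 14-3-3e KO, 4 and 2 in PGRN KO and 6 and 2 in WT. T and NK cell markers gave 5 higher of 10 in 14-3-3e KO, 4 in PGRN KO and 5 in WT, with none lower. The part of these other cells in the falls was not tested.

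**Figure D1:**
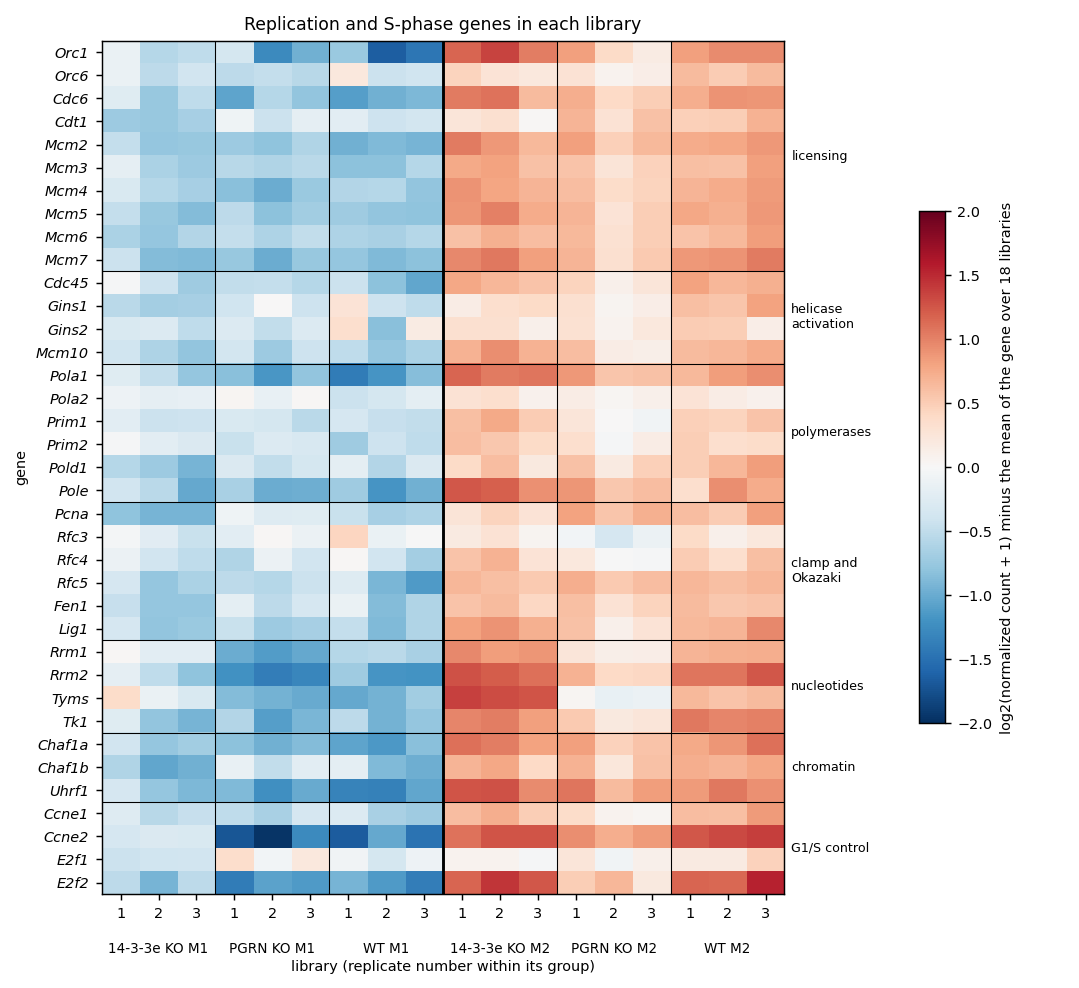
Level of each replication gene (rows, grouped by role) in each of the 18 libraries (columns), as log2(normalized count + 1) minus the mean of that gene over all libraries. The 9 M1 libraries on the left are mostly below the mean and the 9 M2 libraries on the right mostly above it, with Rfc3, Gins2, Pola2 and E2f1 the palest rows.

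Levels between genes were compared per kilobase of exon. Pcna, the sliding clamp that tethers polymerases to DNA, stood highest of the 37 in each of the 6 groups, at 1157 normalized counts per kilobase in 14-3-3e KO M1, 1864 in PGRN KO M1 and 1437 in WT M1. Its M2 levels per kilobase were 2674 in 14-3-3e KO, 3448 in PGRN KO and 3367 in WT. Orc1, the largest subunit of the origin recognition complex, stood lowest in each group, between 8.20 per kilobase in WT M1 and 45.0 in 14-3-3e KO M2. Mcm6 and Mcm3 were among the highest 4 in every group.

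In origin licensing, all 10 members fell in each genotype, with log2 fold changes of -1.67 to -0.65 in 14-3-3e KO, -1.36 to -0.68 in PGRN KO and -2.18 to -0.79 in WT. Orc1 had normalized counts of 61.5, 45.3 and 47.6 in 14-3-3e KO M1, 53.2, 27.4 and 34.4 in PGRN KO M1, and 40.1, 21.0 and 24.4 in WT M1. In M2 the Orc1 counts were 153, 176 and 140 in 14-3-3e KO M2, 120, 89.4 and 76.6 in PGRN KO M2, and 121, 131 and 132 in WT M2. Every M1 library lay below every M2 library, and the log2 fold change was -1.59 ± 0.26 in 14-3-3e KO, -1.32 ± 0.26 in PGRN KO and -2.18 ± 0.26 in WT. Cdc6 recruits Cdt1 and the helicase to the origin, and had 187, 132 and 156 in 14-3-3e KO M1, 106, 149 and 128 in PGRN KO M1, and 103, 114 and 119 in WT M1. Its M2 counts were 457, 475 and 345 in 14-3-3e KO M2, 369, 294 and 314 in PGRN KO M2, and 369, 415 and 410 in WT M2. The 2 sets did not overlap in any genotype, with -1.42 ± 0.16 in 14-3-3e KO, -1.35 ± 0.16 in PGRN KO and -1.82 ± 0.16 in WT. Mcm2, a helicase subunit, had 848, 690 and 698 in 14-3-3e KO M1, 710, 672 and 774 in PGRN KO M1, and 606, 637 and 619 in WT M1, and in M2 2417, 2143 and 1844 in 14-3-3e KO M2, 2087, 1639 and 1850 in PGRN KO M2, and 1977, 2024 and 2152 in WT M2. All M1 values lay below all M2 values, and the differences were -1.51 ± 0.11 in 14-3-3e KO, -1.36 ± 0.11 in PGRN KO and -1.72 ± 0.11 in WT. Mcm7, another subunit, had 1030, 766 and 756 in 14-3-3e KO M1, 827, 702 and 824 in PGRN KO M1, and 816, 759 and 786 in WT M1, and in M2 2714, 2906 and 2459 in 14-3-3e KO M2, 2232, 1731 and 1992 in PGRN KO M2, and 2536, 2591 and 2862 in WT M2. It fell in each genotype, with -1.67 ± 0.12 in 14-3-3e KO, -1.34 ± 0.12 in PGRN KO and -1.76 ± 0.12 in WT. The smallest falls of the 10 were those of Orc6, an origin recognition subunit, with -0.65 ± 0.14 in 14-3-3e KO, -0.68 ± 0.14 in PGRN KO and -0.79 ± 0.14 in WT, and of Cdt1, the loading factor, with -0.92 ± 0.11 in 14-3-3e KO, -0.75 ± 0.11 in PGRN KO and -0.89 ± 0.11 in WT. The other helicase subunits lay between these. Mcm3 had -1.23 ± 0.13 in 14-3-3e KO, -0.99 ± 0.13 in PGRN KO and -1.41 ± 0.13 in WT, and Mcm4 had -1.31 ± 0.10 in 14-3-3e KO, -1.34 ± 0.10 in PGRN KO and -1.41 ± 0.10 in WT. Mcm5, whose promoter holds the E2F letters shown above, had -1.58 ± 0.12 in 14-3-3e KO, -1.17 ± 0.12 in PGRN KO and -1.55 ± 0.12 in WT, and Mcm6, with 3 matches, had -1.30 ± 0.09 in 14-3-3e KO, -1.01 ± 0.09 in PGRN KO and -1.30 ± 0.09 in WT. The largest adjusted p among the calls of these 10 genes was 0.00198.

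Among the helicase activators, all 4 fell in 14-3-3e KO, 2 in PGRN KO and 3 in WT. Cdc45, which joins the Mcm helicase with GINS to make the active form, had 288, 221 and 180 in 14-3-3e KO M1, 209, 212 and 198 in PGRN KO M1, and 218, 165 and 143 in WT M1. In M2 it had 501, 469 and 438 in 14-3-3e KO M2, 399, 315 and 348 in PGRN KO M2, and 515, 464 and 482 in WT M2. The 2 polarizations did not overlap in any genotype, and the differences were -1.05 ± 0.16 in 14-3-3e KO, -0.77 ± 0.16 in PGRN KO and -1.49 ± 0.16 in WT. Mcm10, a scaffold for activation, had 254, 218 and 193 in 14-3-3e KO M1, 260, 202 and 250 in PGRN KO M1, and 236, 195 and 216 in WT M1, and in M2 546, 639 and 541 in 14-3-3e KO M2, 512, 373 and 363 in PGRN KO M2, and 519, 535 and 561 in WT M2. Its fall was -1.38 ± 0.14 in 14-3-3e KO, -0.80 ± 0.14 in PGRN KO and -1.32 ± 0.14 in WT. Gins1, a GINS subunit, gave -0.92 ± 0.18 in 14-3-3e KO, -0.44 ± 0.18 in PGRN KO and -0.87 ± 0.18 in WT, of which the PGRN KO value did not pass (adjusted p = 0.0639). Gins2 gave -0.61 ± 0.21 in 14-3-3e KO, -0.54 ± 0.21 in PGRN KO and -0.49 ± 0.21 in WT and passed in 14-3-3e KO alone (adjusted p = 0.0413), and that call was lost in libraries thinned to equal depth, without any 1 of the 6 14-3-3e KO libraries, and without PGRN KO M1 replicate 1 or 3 or PGRN KO M2 replicate 3. Of the exonic bases of Gins2, 67.3% overlap Gse1 on the opposite strand, which held 55.4% as many reads as Gins2. The labels do not say whether counting used strand.

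Of the polymerase genes, all 6 fell in 14-3-3e KO, 5 in PGRN KO and 6 in WT. Pola1, the catalytic subunit of polymerase alpha, which starts each new strand, had 278, 237 and 192 in 14-3-3e KO M1, 184, 147 and 191 in PGRN KO M1, and 125, 144 and 183 in WT M1. In M2 it had 743, 676 and 693 in 14-3-3e KO M2, 601, 486 and 494 in PGRN KO M2, and 518, 590 and 627 in WT M2. No M1 count reached an M2 count, with -1.59 ± 0.16 in 14-3-3e KO, -1.59 ± 0.16 in PGRN KO and -1.95 ± 0.16 in WT. Pole, the catalytic subunit of the leading strand polymerase epsilon, had 274, 245 and 175 in 14-3-3e KO M1, 227, 179 and 181 in PGRN KO M1, and 218, 156 and 183 in WT M1, and in M2 843, 821 and 674 in 14-3-3e KO M2, 661, 519 and 549 in PGRN KO M2, and 451, 678 and 596 in WT M2. It fell, at -1.77 ± 0.18 in 14-3-3e KO, -1.55 ± 0.18 in PGRN KO and -1.62 ± 0.18 in WT. Pola2, the accessory subunit of polymerase alpha, gave the values nearest to 0, with -0.39 ± 0.09 in 14-3-3e KO, -0.13 ± 0.09 in PGRN KO and -0.50 ± 0.09 in WT, and did not pass in PGRN KO (adjusted p = 0.300). Between these extremes lay Pold1, of polymerase delta, with -1.14 ± 0.14 in 14-3-3e KO, -0.79 ± 0.14 in PGRN KO and -1.02 ± 0.14 in WT. The primase pair that lays RNA primers also fell, Prim1 at -0.98 ± 0.11 in 14-3-3e KO, -0.46 ± 0.11 in PGRN KO and -0.92 ± 0.11 in WT and Prim2 at -0.69 ± 0.11 in 14-3-3e KO, -0.50 ± 0.11 in PGRN KO and -0.94 ± 0.11 in WT.

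For the clamp and Okazaki fragment genes, all 6 fell in 14-3-3e KO, 4 in PGRN KO and 5 in WT. Pcna had 2929, 2695 and 2704 in 14-3-3e KO M1, 4812, 4293 and 4318 in PGRN KO M1, and 3750, 3241 and 3359 in WT M1. In M2 it had 6116, 6954 and 6182 in 14-3-3e KO M2, 8972, 7497 and 8355 in PGRN KO M2, and 7870, 7321 and 9055 in WT M2. No M1 library reached an M2 library, and the log2 fold change was -1.21 ± 0.09 in 14-3-3e KO, -0.88 ± 0.09 in PGRN KO and -1.22 ± 0.09 in WT. Lig1, the ligase that seals Okazaki fragments, had 854, 627 and 643 in 14-3-3e KO M1, 790, 655 and 685 in PGRN KO M1, and 780, 586 and 713 in WT M1, and in M2 1885, 2024 and 1767 in 14-3-3e KO M2, 1622, 1161 and 1303 in PGRN KO M2, and 1694, 1731 and 2110 in WT M2. Its fall was -1.43 ± 0.15 in 14-3-3e KO, -0.93 ± 0.15 in PGRN KO and -1.41 ± 0.15 in WT. Rfc5, a subunit of the complex that loads the clamp, had 595, 435 and 482 in 14-3-3e KO M1, 518, 503 and 557 in PGRN KO M1, and 624, 397 and 341 in WT M1, and in M2 1187, 1132 and 1074 in 14-3-3e KO M2, 1239, 1070 and 1154 in PGRN KO M2, and 1188, 1130 and 1185 in WT M2. It fell, at -1.18 ± 0.16 in 14-3-3e KO, -1.13 ± 0.16 in PGRN KO and -1.41 ± 0.16 in WT. Fen1, the nuclease that trims Okazaki flaps, had 767, 619 and 621 in 14-3-3e KO M1, 925, 737 and 837 in PGRN KO M1, and 963, 580 and 695 in WT M1, and in M2 1570, 1647 and 1414 in 14-3-3e KO M2, 1604, 1290 and 1441 in PGRN KO M2, and 1643, 1541 and 1582 in WT M2. It fell, at -1.21 ± 0.15 in 14-3-3e KO, -0.79 ± 0.15 in PGRN KO and -1.12 ± 0.15 in WT, and 78.8% of its exonic bases overlap an antisense transcript with 1.15% as many reads. Tmem258, also on the opposite strand, overlaps 5.37% of the exonic bases of Fen1 and held 91.5% as many reads.

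Of the other clamp loader subunits, Rfc4 gave -0.85 ± 0.18 in 14-3-3e KO, -0.42 ± 0.18 in PGRN KO and -0.83 ± 0.18 in WT, and the PGRN KO value did not pass (adjusted p = 0.0722). Rfc3 had 376, 331 and 283 in 14-3-3e KO M1, 336, 393 and 357 in PGRN KO M1, and 522, 353 and 384 in WT M1, and in M2 439, 471 and 399 in 14-3-3e KO M2, 373, 308 and 357 in PGRN KO M2, and 503, 415 and 445 in WT M2. The polarizations overlapped in PGRN KO and in WT, where the differences of 0.07 ± 0.14 and -0.13 ± 0.14 did not pass (adjusted p = 0.781 and 0.514). In 14-3-3e KO it was -0.41 ± 0.14, adjusted p = 0.0390, a call that was lost in libraries thinned to equal depth and without 14-3-3e KO M1 replicate 2 or 3 or 14-3-3e KO M2 replicate 1 or 2.

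All 4 genes of nucleotide supply fell in every genotype, with no adjusted p above 6.48e-05. Rrm2, the ribonucleotide reductase subunit made chiefly in S phase, had 825, 660 and 537 in 14-3-3e KO M1, 407, 361 and 379 in PGRN KO M1, and 571, 416 and 408 in WT M1. In M2 it had 2267, 2181 and 2017 in 14-3-3e KO M2, 1521, 1234 and 1257 in PGRN KO M2, and 1969, 1981 and 2225 in WT M2. All M1 libraries lay below all M2 libraries, and the log2 fold change was -1.70 ± 0.14 in 14-3-3e KO, -1.80 ± 0.14 in PGRN KO and -2.16 ± 0.14 in WT. Tk1, the thymidine kinase of S phase, had 538, 369 and 334 in 14-3-3e KO M1, 424, 296 and 336 in PGRN KO M1, and 441, 332 and 372 in WT M1, and in M2 1253, 1295 and 1122 in 14-3-3e KO M2, 918, 726 and 753 in PGRN KO M2, and 1322, 1257 and 1284 in WT M2. It fell, at -1.59 ± 0.16 in 14-3-3e KO, -1.19 ± 0.16 in PGRN KO and -1.76 ± 0.16 in WT. Rrm1, the large reductase subunit, had 2623, 2224 and 2222 in 14-3-3e KO M1, 1295, 1183 and 1270 in PGRN KO M1, and 1730, 1770 and 1640 in WT M1, and in M2 5022, 4597 and 4719 in 14-3-3e KO M2, 3029, 2788 and 2816 in PGRN KO M2, and 4127, 4212 and 4242 in WT M2. Its fall was -1.02 ± 0.07 in 14-3-3e KO, -1.20 ± 0.07 in PGRN KO and -1.29 ± 0.07 in WT. Tyms, which makes thymidylate, had 520, 367 and 325 in 14-3-3e KO M1, 221, 209 and 199 in PGRN KO M1, and 196, 207 and 247 in WT M1, and in M2 1034, 994 and 967 in 14-3-3e KO M2, 413, 362 and 372 in PGRN KO M2, and 633, 598 and 620 in WT M2. Here the fall was -1.33 ± 0.13 in 14-3-3e KO, -0.86 ± 0.13 in PGRN KO and -1.51 ± 0.13 in WT, and the 14-3-3e KO libraries stood above the others in each polarization.

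Chromatin assembly genes fell 3 of 3 in each genotype. Uhrf1, which reads hemimethylated DNA behind the fork, had 894, 663 and 604 in 14-3-3e KO M1, 616, 483 and 559 in PGRN KO M1, and 446, 440 and 552 in WT M1. In M2 it had 2711, 2744 and 2178 in 14-3-3e KO M2, 2388, 1758 and 2009 in PGRN KO M2, and 2049, 2361 and 2130 in WT M2. Its fall of -1.83 ± 0.15 in 14-3-3e KO, -1.89 ± 0.15 in PGRN KO and -2.19 ± 0.15 in WT left no overlap between polarizations. Chaf1a, a subunit of the histone chaperone CAF-1, had 429, 327 and 345 in 14-3-3e KO M1, 317, 286 and 308 in PGRN KO M1, and 268, 251 and 314 in WT M1, and in M2 1197, 1136 and 981 in 14-3-3e KO M2, 992, 774 and 834 in PGRN KO M2, and 950, 1032 and 1196 in WT M2. It fell, at -1.59 ± 0.13 in 14-3-3e KO, -1.50 ± 0.13 in PGRN KO and -1.93 ± 0.13 in WT. Of the exonic bases of Chaf1a, 52.5% overlap Ubxn6 on the opposite strand, which held 190% as many reads as Chaf1a. Chaf1b, its partner, fell, at -1.48 ± 0.19 in 14-3-3e KO, -0.78 ± 0.19 in PGRN KO and -1.41 ± 0.19 in WT.

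In G1/S control, all 4 members fell in 14-3-3e KO and WT and 3 in PGRN KO. Ccne2, cyclin E2, had 103, 106 and 105 in 14-3-3e KO M1, 38.9, 32.4 and 53.0 in PGRN KO M1, and 40.1, 63.1 and 45.7 in WT M1. In M2 it had 276, 312 and 311 in 14-3-3e KO M2, 247, 214 and 233 in PGRN KO M2, and 306, 324 and 338 in WT M2. The fall was -1.51 ± 0.17 in 14-3-3e KO, -2.48 ± 0.17 in PGRN KO and -2.70 ± 0.17 in WT, the largest of all 37 members in PGRN KO and WT, and the M1 counts of 14-3-3e KO stood above those of both other genotypes. E2f2, an activating E2F factor, had 94.6, 70.9 and 95.2 in 14-3-3e KO M1, 51.1, 64.7 and 61.8 in PGRN KO M1, and 71.3, 61.6 and 51.8 in WT M1, and in M2 306, 371 and 324 in 14-3-3e KO M2, 192, 218 and 156 in PGRN KO M2, and 306, 303 and 399 in WT M2. It fell, at -1.94 ± 0.18 in 14-3-3e KO, -1.65 ± 0.18 in PGRN KO and -2.43 ± 0.18 in WT. E2f1, the best known activator of these genes, had 759, 772 and 781 in 14-3-3e KO M1, 1297, 986 and 1176 in PGRN KO M1, and 968, 799 and 951 in WT M1, and in M2 1076, 1074 and 1006 in 14-3-3e KO M2, 1213, 972 and 1100 in PGRN KO M2, and 1160, 1162 and 1398 in WT M2. Its log2 fold change was -0.45 ± 0.11 in 14-3-3e KO, 0.07 ± 0.11 in PGRN KO and -0.45 ± 0.11 in WT. Its polarizations overlapped in PGRN KO, where it did not pass (adjusted p = 0.684), and its WT call was lost when WT M1 replicate 2 and WT M2 replicate 3 were left out together. Ccne1, cyclin E1, fell, at -1.04 ± 0.14 in 14-3-3e KO, -0.66 ± 0.14 in PGRN KO and -1.23 ± 0.14 in WT.

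**Figure D2:**
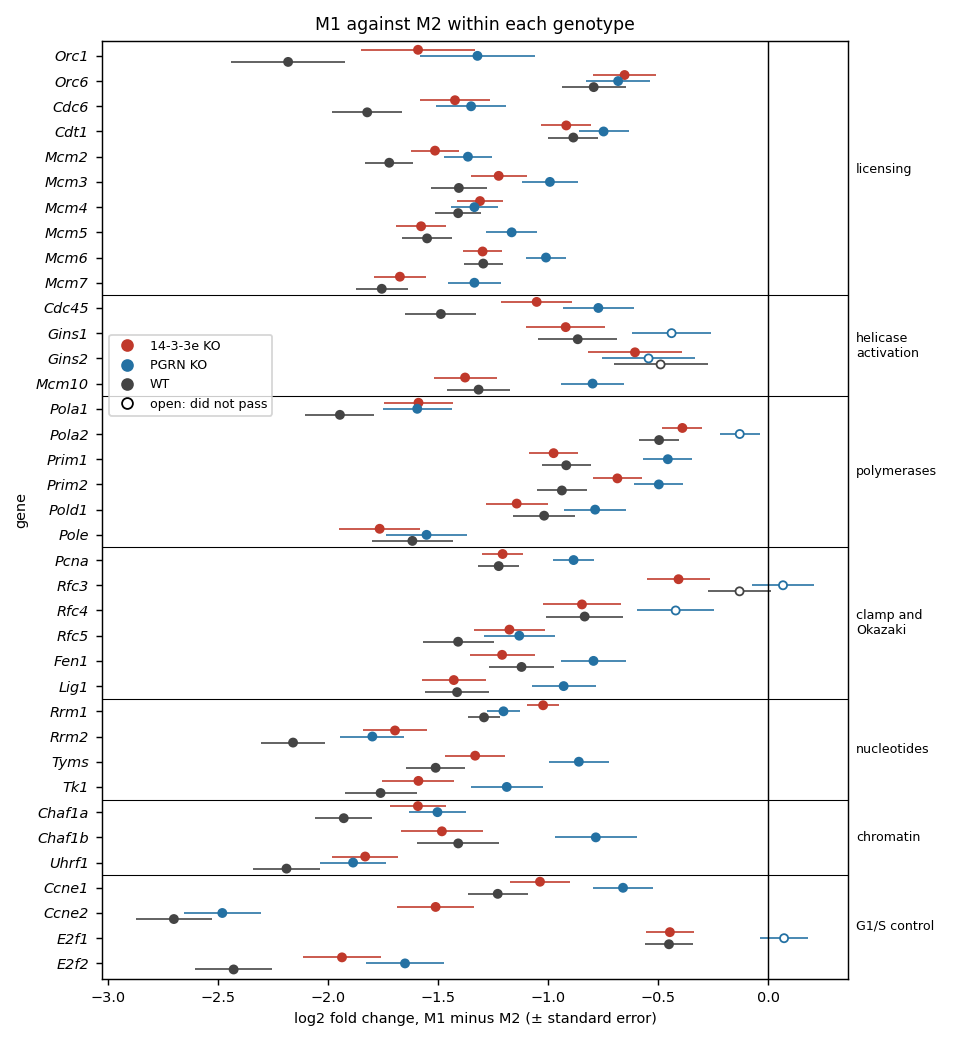
Log2 fold change of M1 against M2 (x axis, ± standard error) for each replication gene (rows, by role) in 14-3-3e KO (red), PGRN KO (blue) and WT (grey), 3 libraries per group, with filled points for adjusted p under 0.05. Nearly all points lie left of 0, and in most rows the PGRN KO point lies nearest to 0.

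The fall was the smallest in PGRN KO of the 3 genotypes for 29 of the 37 members. Those that both passed and had a log2 fold change of -1 or less numbered 27 in 14-3-3e KO, 17 in PGRN KO and 27 in WT, and 17 did so in all 3. Across the 37 members the M1 against M2 differences had a Pearson r of 0.902 between 14-3-3e KO and WT, 0.935 between PGRN KO and WT and 0.849 between 14-3-3e KO and PGRN KO. The libraries behind each pair of values are separate, but genes are not independent replicates and share the depth of each library. Tests of the difference in fall called no member. For PGRN KO against WT, the effect in M1 minus that in M2 was above 0 for 36 of 37 members with a median of 0.38, against 0.01 over all genes. By limma, the smallest adjusted p was 0.116 for Tyms, and weighted limma (voom) also called 0. Without WT M1 replicate 1, the shallowest library, Cdc45, Ccne1 and Chaf1b were called, and without 14-3-3e KO M1 replicate 1 Tyms was. The share of all genes called was 1.25%. Of the other lists, Dck (0.78 ± 0.16, adjusted p = 0.0284) and the mitotic spindle gene Tpx2 (0.89 ± 0.21, adjusted p = 0.0437) passed.

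For 14-3-3e KO against WT the same difference was above 0 for 23 members with a median of 0.11, against 0.06 over all genes. No member passed in limma or voom, and 0.286% of all genes did. The smallest adjusted p was that of Ccne2, at 1.19 ± 0.25, adjusted p = 0.0572. Ccne2 passed without WT M1 replicate 2 or without either PGRN KO M1 replicate 2 or 3, with a pseudocount of 5, with a filter of 5 CPM, and without WT M1 replicate 2 and WT M2 replicate 3 together.

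Other genes of the same machinery moved with the members. Of 39 further replisome genes, 27 fell and 0 rose in 14-3-3e KO, 21 fell and 3 rose in PGRN KO, and 27 fell and 1 rose in WT. Examples in WT were Clspn, the checkpoint mediator claspin, at -2.18 ± 0.16, Dtl, which targets Cdt1 for destruction, at -1.98 ± 0.15, Wdhd1 at -1.88 ± 0.12 and Dna2 at -1.89 ± 0.15. All 32 mitosis genes fell in 14-3-3e KO and in WT, and 31 fell in PGRN KO. Their medians were -1.44 in 14-3-3e KO, -1.13 in PGRN KO and -1.67 in WT. Mki67, the proliferation marker Ki-67, fell, at -2.22 ± 0.18 in 14-3-3e KO, -1.75 ± 0.18 in PGRN KO and -2.19 ± 0.18 in WT, and Kif11, a spindle motor, at -2.23 ± 0.17 in WT, beside Aurkb at -1.90 ± 0.16 and Mad2l1 at -1.59 ± 0.13.

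Some genes of nucleotide metabolism moved against the members. Of 15 further nucleotide genes, 3 rose and 10 fell in 14-3-3e KO, 3 rose and 11 fell in PGRN KO, and 3 rose and 10 fell in WT. Samhd1, which breaks down deoxynucleotides, averaged 20053 ± 881 normalized counts in 14-3-3e KO M1, 23570 ± 667 in PGRN KO M1 and 21993 ± 128 in WT M1 (SD, n = 3 each). In M2 its means were 5865 ± 262 in 14-3-3e KO, 6663 ± 124 in PGRN KO and 5333 ± 219 in WT, and it rose in M1 by 1.77 ± 0.06 in 14-3-3e KO, 1.82 ± 0.06 in PGRN KO and 2.04 ± 0.06 in WT. Dck, which salvages deoxycytidine, rose by 0.97 ± 0.12 in 14-3-3e KO, 1.90 ± 0.12 in PGRN KO and 1.12 ± 0.12 in WT, and Tk2, the mitochondrial thymidine kinase, by 0.73 ± 0.09 in WT. Cad, the first enzyme of pyrimidine synthesis, fell, at -1.20 ± 0.12 in 14-3-3e KO, -1.55 ± 0.12 in PGRN KO and -1.60 ± 0.12 in WT.

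Among 26 G1 regulators, 3 rose and 13 fell in 14-3-3e KO, 6 rose and 14 fell in PGRN KO, and 3 rose and 16 fell in WT. In WT, Myc fell, at -1.50 ± 0.12, E2f8 at -2.07 ± 0.17 and Tfdp1, the partner of E2F factors, at -1.22 ± 0.11, whereas Ccnd3, cyclin D3, rose by 1.12 ± 0.09. Cdkn1a, the cell cycle inhibitor p21, rose by 0.54 ± 0.13, adjusted p = 0.00374, in 14-3-3e KO and by 0.34 ± 0.13, adjusted p = 0.0466, in PGRN KO, and its WT value of 0.05 ± 0.13, adjusted p = 0.806, did not pass.

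The knockouts were also set directly against each other. In 14-3-3e KO M1 cells against PGRN KO M1 cells, 6 members were higher (Mcm4, Rrm1, Rrm2, Tyms, Ccne2 and E2f2) and 4 lower (Cdt1, Pcna, Chaf1b and E2f1), where 12.5% of all genes were higher and 12.5% lower. Both counts were near those shares of all genes, so they set the members apart in neither direction. Rrm1 rose by 0.91 ± 0.07, adjusted p = 1.86e-07, Tyms by 0.91 ± 0.13, adjusted p = 7.98e-05, and Rrm2 by 0.80 ± 0.14, adjusted p = 0.000556. The counts given above for these 3 genes did not overlap between these groups. Here and in the comparisons of genotypes below, lack of overlap is given for members already called and without its share over all genes. It therefore adds no support to the calls. Ccne2, with 103, 106 and 105 in 14-3-3e KO M1 and 38.9, 32.4 and 53.0 in PGRN KO M1, rose by 1.34 ± 0.17, adjusted p = 2.36e-05. Pcna moved the other way, with 2929, 2695 and 2704 in 14-3-3e KO M1 and 4812, 4293 and 4318 in PGRN KO M1, at -0.69 ± 0.09, adjusted p = 3.63e-05. E2f1 fell, at -0.57 ± 0.11, adjusted p = 0.000957, and E2f2 rose by 0.54 ± 0.18, adjusted p = 0.0318. Cdt1 had 604, 591 and 631 in 14-3-3e KO M1 and 949, 742 and 889 in PGRN KO M1, with no overlap (-0.49 ± 0.11, adjusted p = 0.00387). Mcm4 had 1044, 866 and 813 in 14-3-3e KO M1 and 726, 645 and 772 in PGRN KO M1 (0.34 ± 0.10, adjusted p = 0.0243). Chaf1b had 253, 187 and 197 in 14-3-3e KO M1 and 346, 271 and 333 in PGRN KO M1 (-0.58 ± 0.19, adjusted p = 0.0288). The calls of Rrm1, Rrm2, Tyms, Ccne2, Pcna, E2f1 and Cdt1 held in all 28 alternatives, that of Mcm4 in 24, Chaf1b in 23 and E2f2 in 21.

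In 14-3-3e KO M2 cells against PGRN KO M2 cells, 13 members were higher and Pcna was lower, where 8.29% of all genes were higher and 9.92% lower. The 13 were Mcm4, Mcm5, Mcm7, Mcm10, Prim1, Prim2, Lig1, Rrm1, Rrm2, Tyms, Tk1, Ccne1 and E2f2, and the median over all 37 was 0.36, against a median near 0 over all genes. Tyms stood at 1034, 994 and 967 in 14-3-3e KO M2 and 413, 362 and 372 in PGRN KO M2, the largest rise of any member at 1.38 ± 0.13, adjusted p = 1.73e-06. E2f2 rose by 0.83 ± 0.18, adjusted p = 0.00274, Rrm1 by 0.73 ± 0.07, adjusted p = 2.31e-06, and Rrm2 by 0.69 ± 0.14, adjusted p = 0.00239. Tk1 rose by 0.62 ± 0.16, Lig1 by 0.49 ± 0.15, Mcm10 by 0.48 ± 0.14, Mcm7 by 0.44 ± 0.12 and Mcm4 by 0.31 ± 0.10. Prim1 had 381, 429 and 359 in 14-3-3e KO M2 and 299, 252 and 241 in PGRN KO M2 (0.56 ± 0.11, adjusted p = 0.00165). Prim2 had 573, 540 and 487 in 14-3-3e KO M2 and 471, 367 and 411 in PGRN KO M2 (0.36 ± 0.11, adjusted p = 0.0324). Neither primase gene overlapped between the groups. Mcm5 had 3025, 3318 and 2738 in 14-3-3e KO M2 and 2627, 1990 and 2320 in PGRN KO M2 (0.39 ± 0.12, adjusted p = 0.0233). Ccne1 had 504, 544 and 465 in 14-3-3e KO M2 and 426, 346 and 339 in PGRN KO M2 (0.45 ± 0.14, adjusted p = 0.0276). Pcna fell, at -0.37 ± 0.09, adjusted p = 0.0103.

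The count of 14 in M2 moved with single libraries: without 14-3-3e KO M2 replicate 1 it was 9, without 14-3-3e KO M2 replicate 2 it was 7, and without PGRN KO M2 replicate 2 or 3 it was 7. With only these groups in the fit it was 23, and the calls of Rrm1, Rrm2, Tyms, Prim1 and E2f2 held in all 28 alternatives. Those of Pcna, Mcm7 and Tk1 held in 26, Mcm5, Mcm10 and Lig1 in 24, Prim2 and Ccne1 in 23 and Mcm4 in 17. Scaled by library totals, the split was 26 higher and 0 lower, and in M1 it was 10 higher and 3 lower, with the median of all genes itself shifted by 0.15 in both.

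**Figure D3:**
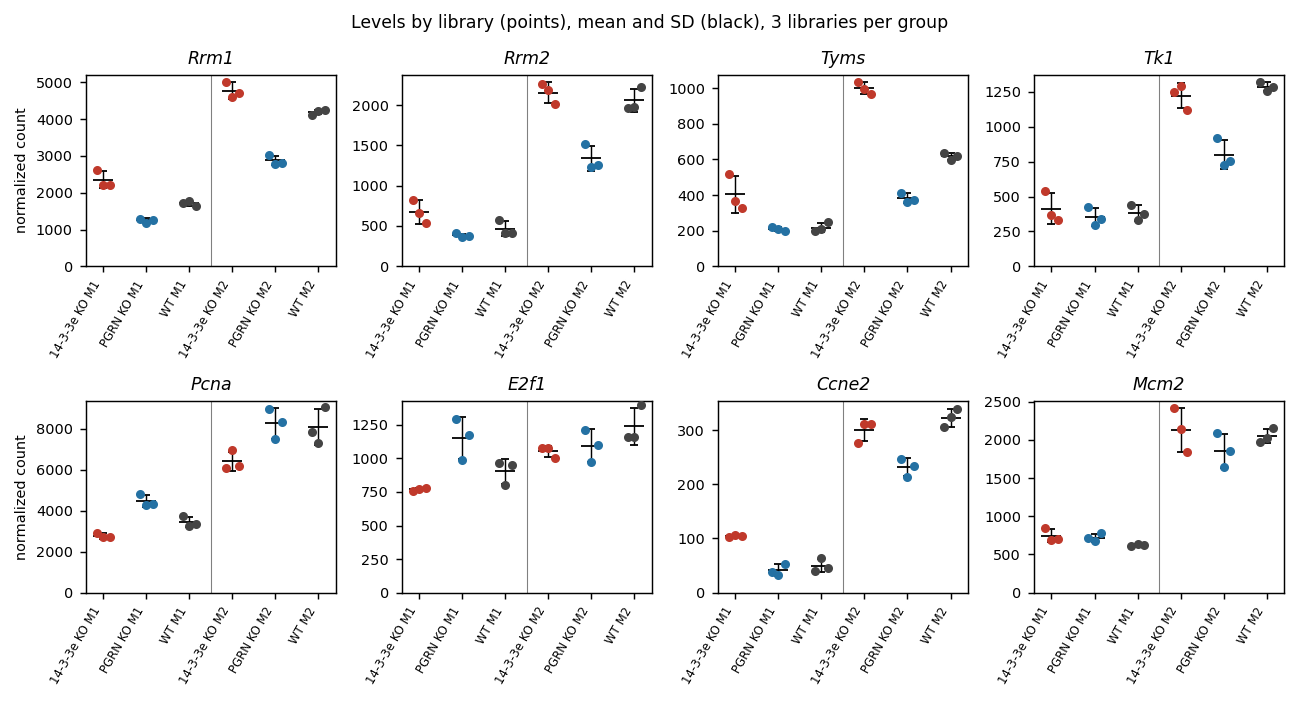
Normalized counts (y axis, from 0) of 8 replication genes in every library (points) of the 6 groups, with the mean and SD of 3 libraries in black. Rrm1, Rrm2 and Tyms stand higher in 14-3-3e KO (red) than in PGRN KO (blue) in both polarizations, and Pcna stands lower.

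Mitosis genes stood higher in 14-3-3e KO than in PGRN KO in both polarizations, whereas the members went both ways in M1. In 14-3-3e KO against PGRN KO, 24 of 32 mitosis genes were higher in M1 and 31 of 32 in M2, with none lower, and medians of 0.71 and 0.93. Cdc20, the activator of the anaphase complex, rose by 1.08 ± 0.17 in M1 and 1.15 ± 0.17 in M2. Mki67 rose by 0.91 ± 0.18, adjusted p = 0.00179, in M2, and its M1 value of 0.44 ± 0.18, adjusted p = 0.0933, did not pass. In the 39 further replisome genes the split was 2 higher and 5 lower in M1 and 6 higher and 1 lower in M2. Top2a, the topoisomerase of dividing cells, was higher by 0.82 ± 0.18 in M1 and 0.98 ± 0.18 in M2, and Pold3, of polymerase delta, was lower at -0.56 ± 0.09 and -0.54 ± 0.09. Further nucleotide genes gave 4 higher and 2 lower in M1 and 6 higher and 2 lower in M2, led by Ctps, which makes CTP, at 1.03 ± 0.07 and 0.53 ± 0.07. G1 regulators gave 12 higher and 1 lower in M1 and 4 higher and 1 lower in M2. Myc rose by 0.97 ± 0.12 in M1, while Cdkn1c, the inhibitor p57, fell, at -2.01 ± 0.28 in M1 and -2.82 ± 0.28 in M2. Cdkn1a rose by 0.44 ± 0.13, adjusted p = 0.0186, in M1, and Samhd1 fell, at -0.23 ± 0.06 in M1 and -0.18 ± 0.06 in M2.

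The stromal markers moved in the same comparison. Of 13, 9 were higher in 14-3-3e KO M1 than in PGRN KO M1 and 7 in M2, with none lower, and Acta2, smooth muscle actin, rose by 1.86 ± 0.12 in M1 and 1.35 ± 0.12 in M2. The sums given above did not overlap between these knockouts in either polarization. Macrophage identity markers gave 1 higher and 6 lower of 10 in M1 and 0 higher and 5 lower in M2, and progenitor markers 3 higher in M1 and 1 in M2. In M1, mast cell and basophil markers gave 4 higher of 7, dendritic markers 2 of 7 and B cell markers 2 of 8. Red cell and megakaryocyte markers summed to 1061 to 1365 in 14-3-3e KO M1 against 637 to 931 in PGRN KO M1, and to 1575 to 1836 in 14-3-3e KO M2 against 704 to 891 in PGRN KO M2, with 1 called higher in each. The part of these other cells in the differences between the knockouts was not tested.

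**Figure D4:**
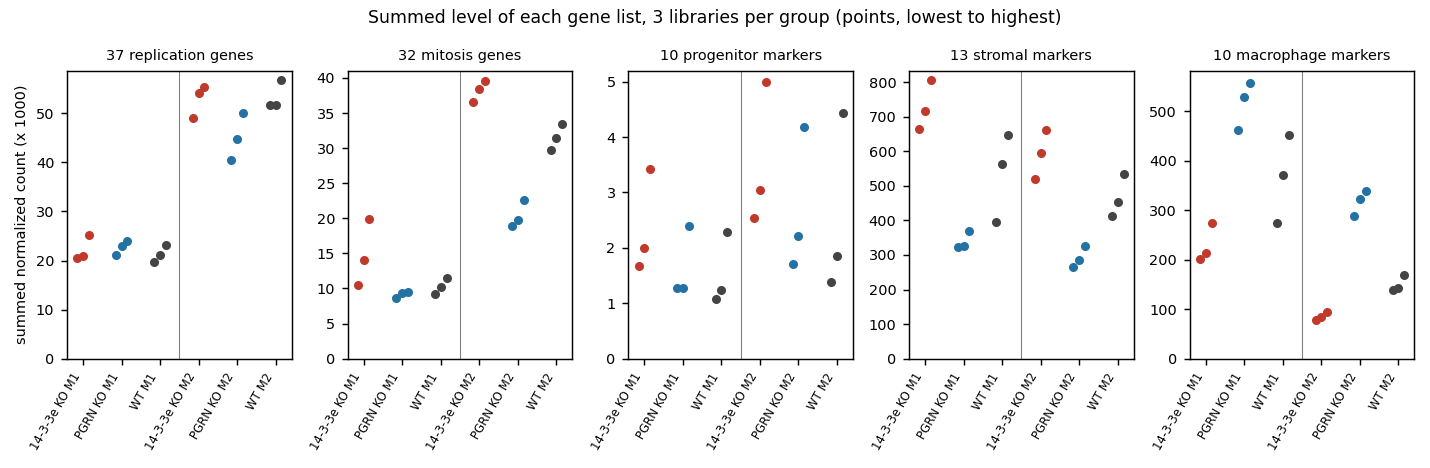
Summed normalized counts (y axis, from 0) of the 37 replication genes, 32 mitosis genes, 10 progenitor markers, 13 stromal markers and 10 macrophage markers in the 3 libraries of each group (points, ordered by value). The replication sums of the genotypes overlap in M1, while stromal sums are higher in 14-3-3e KO (red) than in PGRN KO (blue) in both polarizations.

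Against WT, the 14-3-3e KO had 10 members higher and 2 lower in M1, where 12% of all genes were higher and 9.31% lower. The higher ones were Orc1, Cdc6, Pola1, Prim2, Rrm1, Rrm2, Tyms, Chaf1a, Uhrf1 and Ccne2, and the lower ones Cdt1 and Pcna. Ccne2 rose by 1.08 ± 0.17, adjusted p = 0.000802, with 103, 106 and 105 in 14-3-3e KO M1 and 40.1, 63.1 and 45.7 in WT M1. Tyms rose by 0.87 ± 0.13, adjusted p = 0.000600, Orc1 by 0.87 ± 0.26, adjusted p = 0.0265, and Pola1 by 0.64 ± 0.16, adjusted p = 0.0101. The libraries of Rrm2 overlapped between the groups. Uhrf1 rose by 0.57 ± 0.15, Rrm2 by 0.53 ± 0.14, Cdc6 by 0.48 ± 0.16, Rrm1 by 0.46 ± 0.07 and Chaf1a by 0.40 ± 0.13. Prim2, with 368, 320 and 306 in 14-3-3e KO M1 and 227, 278 and 262 in WT M1, rose by 0.37 ± 0.11. Cdt1 fell, at -0.39 ± 0.11, adjusted p = 0.0231, and Pcna at -0.31 ± 0.09, adjusted p = 0.0270. Mcm2 and E2f1 gave 0.26 ± 0.11 and -0.23 ± 0.11 and did not pass.

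With only these groups in the fit 0 of the 12 calls remained, and without 14-3-3e KO M1 replicate 1, the deepest library, the count was 5. Without WT M1 replicate 2 and WT M2 replicate 3 together the split was 7 higher and 6 lower. In the same comparison 16 of 32 mitosis genes were higher and 0 lower, among them Anln at 1.09 ± 0.19, Foxm1 at 0.70 ± 0.15 and Kif11 at 0.77 ± 0.17, while Mki67 gave 0.50 ± 0.18, adjusted p = 0.0586. The 39 further replisome genes split 6 higher and 2 lower, with Clspn at 0.74 ± 0.16, the nucleotide genes 3 and 1, with Cad at 0.59 ± 0.12, and the G1 regulators 6 and 1, with E2f7 at 1.05 ± 0.22. Stromal markers gave 5 higher and 0 lower of 13, progenitor markers 2 and 0 of 10 (Myb at 1.96 ± 0.51 and Mpo at 2.07 ± 0.62), dendritic markers 3 and 0 of 7, and macrophage markers 2 and 5 of 10. Red cell and megakaryocyte markers gave 0 higher and 2 lower, summing to 1061 to 1365 in 14-3-3e KO M1 against 2186 to 3590 in WT M1, and 1 T and NK cell marker was lower. Their part in the result was not tested.

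In M2, the 14-3-3e KO differed from WT in 2 members, Tyms higher and Pcna lower, where 3.32% of all genes were higher and 3.37% lower. These counts too were near the shares of all genes. Tyms had 1034, 994 and 967 in 14-3-3e KO M2 and 633, 598 and 620 in WT M2, with no overlap (0.69 ± 0.13, adjusted p = 0.00607), and held in all 28 alternatives. Pcna, at 6116, 6954 and 6182 in 14-3-3e KO M2 and 7870, 7321 and 9055 in WT M2, had -0.33 ± 0.09, adjusted p = 0.0449, and this call held in 11 of the 28. It was lost, among others, when any 1 of the 3 14-3-3e KO M2 libraries, WT M2 replicate 1 or 3, WT M1 replicate 3, PGRN KO M2 replicate 3, or any 1 M1 library of either knockout was left out, which left 1 call. The remaining 35 members lay between -0.36 (Gins1) and 0.45 (Pole), and Rrm2, Mcm2 and E2f1 gave 0.07 ± 0.14, 0.05 ± 0.11 and -0.23 ± 0.11. No mitosis or further replisome gene passed, and 1 nucleotide gene (Nme1) and 1 G1 regulator (Cdkn1c) were lower. Beside this, 2 of 13 stromal markers were higher, Pdgfrb and Bgn, and 2 of 10 macrophage markers were lower. Red cell and megakaryocyte markers summed to 1575 to 1836 in 14-3-3e KO M2 against 2207 to 2690 in WT M2, with Pf4 lower. Of progenitor, dendritic and neutrophil markers 1 each was higher, and their part in the result was not tested.

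In PGRN KO M1 cells against WT M1 cells, 4 members passed. Pcna, Pola2 and E2f1 were higher and Rrm1 was lower, where 14.2% of all genes were higher and 11.1% lower. In both directions a smaller share of the members than of all genes was called. Pcna rose by 0.38 ± 0.09, adjusted p = 0.00733, with 4812, 4293 and 4318 in PGRN KO M1 and 3750, 3241 and 3359 in WT M1. Rrm1 fell, at -0.46 ± 0.07, adjusted p = 0.000276, with 1295, 1183 and 1270 in PGRN KO M1 and 1730, 1770 and 1640 in WT M1. Neither gene overlapped between the groups, and both calls held in all 28 alternatives. Pola2, with 610, 535 and 607 in PGRN KO M1 and 441, 467 and 521 in WT M1 (0.29 ± 0.09, adjusted p = 0.0249), and E2f1 (0.34 ± 0.11, adjusted p = 0.0309) were the other calls, kept in 21 and 22 of the 28. The count was 2 without PGRN KO M1 replicate 1 or replicate 3, and library totals turned the split to 1 higher and 3 lower. Rrm2 and Mcm2 gave -0.27 ± 0.14 and 0.21 ± 0.11 and did not pass. Mitosis genes gave 0 higher and 3 lower of 32 (Cks2, Cdc20 and Ube2c), further replisome genes 6 and 1 of 39, nucleotide genes 0 and 4 of 15 and G1 regulators 4 and 6 of 26. Of these, Dna2 rose by 0.69 ± 0.15, Ctps fell, at -0.74 ± 0.07 and Ccnd3 fell, at -0.62 ± 0.09.

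In M2 the PGRN KO had 10 members lower than WT and 0 higher, where 8.3% of all genes were lower and 11.1% higher. They were Orc6, Mcm7, Prim1, Lig1, Rrm1, Rrm2, Tyms, Tk1, Ccne1 and E2f2, so all 4 nucleotide genes were among them. E2f2, at 192, 218 and 156 in PGRN KO M2 and 306, 303 and 399 in WT M2, fell, at -0.83 ± 0.18, adjusted p = 0.00313. Tk1 had 918, 726 and 753 in PGRN KO M2 and 1322, 1257 and 1284 in WT M2 (-0.70 ± 0.16, adjusted p = 0.00621). Tyms fell, at -0.69 ± 0.13, adjusted p = 0.00170, Rrm2 at -0.63 ± 0.14, adjusted p = 0.00557, and Rrm1 at -0.54 ± 0.07, adjusted p = 7.09e-05. None of these 5 genes, which were picked among the calls, overlapped between the groups, which adds no support to their calls. Ccne1 fell, at -0.53 ± 0.14, Lig1 at -0.44 ± 0.15, Mcm7 at -0.43 ± 0.12 and Prim1 at -0.43 ± 0.11. Orc6 had 463, 395 and 414 in PGRN KO M2 and 587, 535 and 586 in WT M2 (-0.43 ± 0.14, adjusted p = 0.0478). Pcna, Mcm2 and E2f1 gave 0.04 ± 0.09, -0.15 ± 0.11 and -0.18 ± 0.11 and did not pass.

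The calls of Rrm1, Rrm2, Tyms and Tk1 held in all 28 alternatives, that of E2f2 in 27, Prim1 in 26, Mcm7 and Ccne1 in 25, Lig1 in 18 and Orc6 in 12. Orc6 was lost without any 1 library of PGRN KO M1, PGRN KO M2, WT M2 or 14-3-3e KO M2, or without 14-3-3e KO M1 replicate 3. Lig1 was lost without any 1 WT M2 library, PGRN KO M2 replicate 2 or 3, PGRN KO M1 replicate 3 or 14-3-3e KO M2 replicate 1. Both were also lost with no filter, when thinned to equal depth, and without WT M1 replicate 2 and WT M2 replicate 3 together. The count of 10 became 16 without WT M1 replicate 1 and 6 without WT M2 replicate 3 or without PGRN KO M2 replicate 3, and 16 with only these groups in the fit. Beside it, 20 of 32 mitosis genes were lower and 0 higher, with Cdc20 at -0.88 ± 0.17 and Ube2c at -1.23 ± 0.24, while Mki67 gave -0.38 ± 0.18, adjusted p = 0.171. Further replisome genes split 1 higher and 7 lower of 39, nucleotide genes 3 and 9 of 15 and G1 regulators 1 and 9 of 26. Slbp, which binds histone messages, fell, at -0.52 ± 0.13, Samhd1 rose by 0.32 ± 0.06, Cdkn1c rose by 1.78 ± 0.28, and Cdkn1a fell, at -0.59 ± 0.13, adjusted p = 0.00393. Stromal markers gave 1 higher and 5 lower of 13 here, and 0 and 4 in M1, and macrophage markers 4 higher in M2 and 5 higher and 1 lower in M1. Markers of red cells and megakaryocytes, 8 genes of which 7 passed the filter, summed to 704 to 891 in PGRN KO M2 against 2207 to 2690 in WT M2. In M1 they summed to 637 to 931 in PGRN KO against 2186 to 3590 in WT, with no overlap in either polarization. The calls among them were Hbb-bs, a globin, and Pf4, a platelet chemokine, both lower in M1 and in M2. B cell markers summed to 930 to 2441 in PGRN KO M2 against 2406 to 4912 in WT M2, and to 937 to 2891 in PGRN KO M1 against 3758 to 6613 in WT M1, with 2 of 8 called lower in M1 and 0 in M2. In M1 2 of 10 T and NK cell markers, 1 of 7 mast cell and basophil markers and 1 of 10 progenitor markers were also lower. The part of all these markers in the result was not tested. The comparisons of the knockouts with WT share the WT libraries, so their values stand side by side here and were not set against each other. Those between the knockouts use the same knockout libraries again, so a gene called in several comparisons was not found independently in each.

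**Figure D5:**
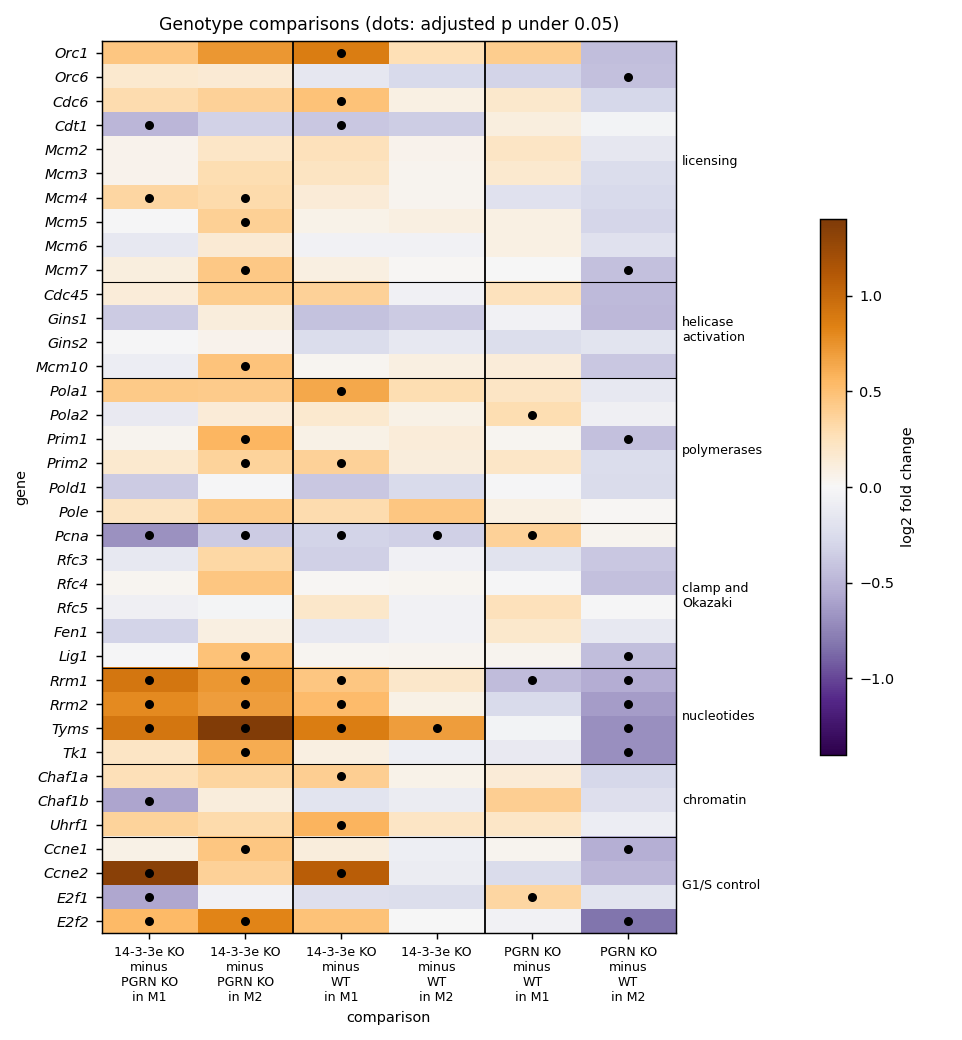
Log2 fold change (colour) of each replication gene (rows, by role) in the 6 comparisons of genotypes (columns), with a dot where the adjusted p was under 0.05. Columns that name the same genotype and polarization share libraries. Rrm1, Rrm2 and Tyms are orange (higher) in 14-3-3e KO against PGRN KO and purple (lower) in PGRN KO against WT in M2, while Pcna is purple in 14-3-3e KO against PGRN KO.

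The 5 members called in most comparisons of genotypes lie, on GRCm38 with GENCODE M21, at chr2:132249162-132253314 (Pcna), chr7:102441695-102469771 (Rrm1), chr5:30058202-30073617 (Tyms), chr12:24708241-24714146 (Rrm2) and chr4:136172394-136196057 (E2f2), all protein-coding. The processed pseudogene Pcna-ps2 held 1.02% as many reads as Pcna. Overlap of exons with another gene affects 13 of the 37 members, and for Ccne2 it covers 17.4% of exonic bases, with Ints8 on the opposite strand. Ints8 held 210% as many reads as Ccne2. Other opposite-strand partners with more reads than the member, beside Ubxn6, were Eif4a2 (1281% of Rfc4), Vps35 (896% of Orc6), Wsb2 (502% of Rfc5), Ufd1 (288% of Cdc45) and Cops6 (113% of Mcm7). The overlaps with these partners cover 1.45% to 12.7% of the exonic bases of those members. Reads from a gene and its opposite-strand partner cannot be told apart if counting ignored strand.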

How the data were processed

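Total RNA of 18 libraries was measured, 3 in each of 6 groups taken from the sample labels. The authors deposited 1 table of log2(normalized count + 1) values for 43309 mouse genes. Per the submitters' processing notes the tools were STAR, RSEM 1.3.1 and DESeq2. The build those notes name is GRCh38, a human one, while the table holds mouse gene IDs, and coordinates here come from GENCODE M21 (GRCm38). Values are called normalized counts after the log2 was undone.

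The values resolved into whole reads within 0.1 read for 100% of entries, which gave each library's depth. WT M1 had the shallowest libraries, so their low genes carry the most counting error. The test was limma 3.58.1 in R 4.3.3, with trend and robust variance, fitted to the log2 values over all 18 libraries. All groups shared 1 estimate of the spread of a gene, though WT libraries agreed less with each other than knockout libraries did. Over genes with 5 CPM or more, r within a group was 0.912 to 0.941 in WT M1 and 0.932 to 0.969 in WT M2. In the knockout groups it was 0.971 to 0.986. Standard errors and p-values of comparisons with WT may therefore be too small. Genes needed 3 libraries with a normalized count of 1 or more, which left 21336 genes. P-values were adjusted by Benjamini-Hochberg over all of them, with a threshold of 0.05, in 11 comparisons. Values after ± are standard errors for log2 fold changes and SD for means. The scripts were tested on simulated data with seed 1.

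Members and gene lists were chosen with earlier results of these data known. All 37 members are described, with values per library for Mcm2, Pcna, Rrm2, E2f1 and, in each comparison, for called members with the largest fold changes in each role. From each other list up to 4 genes with the smallest p are named, and Cdkn1a, Samhd1 and Mki67 always. Alternatives changed the pseudocount, filter, groups fitted, weights (voom), depth (reads thinned to the shallowest library), scaling, replicate block and libraries, 28 in all. Promoters were searched with Python 3.11.15.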

Additional observations from a re-analysis of the deposited data

How the results depend on the processing

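Of the values of called members under the alternatives, 4146 kept their call and 194 lost it, and none of these changed direction. Members that were not called were not followed in this way. When the fit held just the groups being compared, the count of called members was 2 for PGRN KO against WT in M1, 16 for PGRN KO against WT in M2, 0 for 14-3-3e KO against WT in M1, 1 for 14-3-3e KO against WT in M2 and 23 for 14-3-3e KO against PGRN KO in M2. Voom weights gave 17 for PGRN KO against WT in M2 and 24 for 14-3-3e KO against PGRN KO in M2, and scaling by library totals gave 17 and 26 for these. A filter of 5 CPM gave 17 for PGRN KO against WT in M2, and thinning to equal depth gave 5 there and 7 for 14-3-3e KO against WT in M1. For 14-3-3e KO against WT in M2, the count was 1 with no filter and 1 without WT M1 replicate 2 and WT M2 replicate 3. The difference of the 14-3-3e KO effect between M1 and M2 gave 1 call with a pseudocount of 5, 1 with 5 CPM and 1 without those libraries. The cause of these moves was not tested.

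Leaving out each library in turn gave 35 to 37 called members for M1 against M2 in 14-3-3e KO, 31 to 34 in PGRN KO and 35 to 36 in WT. It gave 7 to 14 for 14-3-3e KO against PGRN KO in M1 and 7 to 20 in M2, 5 to 14 for 14-3-3e KO against WT in M1 and 1 to 3 in M2, and 2 to 6 for PGRN KO against WT in M1 and 6 to 16 in M2. The differences of effects gave 0 to 1 for 14-3-3e KO and 0 to 3 for PGRN KO. Scaling by library totals moved the median of all genes by -0.19 in 14-3-3e KO, -0.18 in PGRN KO and -0.15 in WT for M1 against M2.

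Deviations from the group mean in same-numbered replicates had r between -0.35 and 0.53 over 45 pairs, with 10 above 0.1. Over 90 pairs with different numbers r ran between -0.57 and 0.48, with 28 above 0.1. With 3 libraries a group these values cannot settle whether the numbers pair samples, and the labels do not say. The main fit used no pairing. The fit with a replicate block gave 37, 32 and 35 for M1 against M2 in 14-3-3e KO, PGRN KO and WT, 10 and 17 for 14-3-3e KO against PGRN KO in M1 and M2, 12 and 2 for 14-3-3e KO against WT, 4 and 13 for PGRN KO against WT, and 0 for both differences of effects. Depth limits Orc1, Ccne2, E2f2 and Cdc6 most, since they rest on the fewest reads in WT M1.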
